A study of Mus musculus with 27 samples.

Results

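IL4 was compared with vehicle in GRIP1-knockout macrophages, in 7 of the 27 libraries of the series, taken by their labels. The 3 IL4 libraries carry the replicate numbers 1, 2 and 4 and the 4 vehicle libraries the numbers 1 to 4. The study measured poly(A) RNA in macrophages grown for 5 days from bone marrow of male C57BL/6 mice aged 8 to 10 weeks, in medium with 20% serum and 10% L-cell conditioned medium. It treated knockout and wild-type cells with vehicle, IL4 or a glucocorticoid, and asked how IL4 and glucocorticoids reprogram macrophages and what GRIP1 adds to that. Knockout mice were LysM-Cre+/+; GRIP1fl/fl, so all 7 libraries carry LysM-Cre and the floxed GRIP1 alleles. LysM-Cre is made from the lysozyme locus Lyz2, which myeloid cells use, and GRIP1 is the protein of Ncoa2. IL4 was given at 10 ng/ml for 24 h, and the labels of the vehicle libraries give no hours. Wild-type cells, used for comparison with 3 IL4 and 3 vehicle libraries, are LysM-Cre+/+; GRIP1wt/wt by their genotype label and BL6 by their titles. Whether the libraries are from separate mice is not stated in the labels, and the p-values measure only how far libraries differ, which may be technical.

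IL4 is a type 2 cytokine. It binds a receptor made of IL4Rα and a partner chain, Janus kinases then phosphorylate STAT6, and STAT6 enters the nucleus and binds DNA at paired TTC and GAA letters. In macrophages this turns on alternative activation, a state known for arginase, chitinase-like and resistin-like proteins, mannose and galactose lectins and MHC class II, and SOCS family proteins feed back on the kinases. GRIP1 is a p160 coregulator that binds nuclear receptors such as the glucocorticoid receptor, and other transcription factors, and brings chromatin-modifying partners to them.

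The 7 libraries held 24353968 to 48023102 counts in genes, and 14589 genes had enough counts to be tested. The targeted gene Ncoa2 (ENSMUSG00000005886, chromosome 1, 13139105 to 13374083, minus strand) was at 19, 16.1, 16.6 and 22.2 CPM with vehicle and 17.1, 20.3 and 26 CPM with IL4 (counts relative to the scaled library size, as CPM), against means of 66.4 and 63.3 CPM in wild-type vehicle and IL4 libraries. Reads were summed over the gene, including parts outside the floxed one, so the remaining counts do not measure how much GRIP1 protein was left. The macrophage markers were present throughout: the growth factor receptor Csf1r was at 2244, 1997, 1971 and 2305 CPM with vehicle and 2168, 2186 and 1859 CPM with IL4, and F4/80 (Adgre1) was at 2458, 2357, 2019 and 2478 CPM with vehicle and 2064, 2352 and 1704 CPM with IL4. Some defining markers of other cells were at or near 0 counts, with at most 1 count of the neutrophil gene Ly6g, 2 of the eosinophil gene Epx, 2 of the T cell gene Cd3e and 5 of the dendritic gene Clec9a in any of the 7 libraries. Other genes used as markers of such cells were abundant, and the summed levels were 75.5 to 235 CPM with vehicle and 563 to 654 CPM with IL4 for 11 dendritic markers (mostly Itgax), 175 to 213 and 268 to 364 CPM for 15 T and NK cell markers (mostly Il7r), 156 to 175 and 169 to 255 CPM for 10 B cell markers (mostly Blnk), 131 to 185 and 206 to 321 CPM for 15 neutrophil markers and 110 to 141 and 244 to 302 CPM for 8 endothelial markers (mostly Vwf). For 9 monocyte markers the sums were 24.2 to 65.3 CPM with vehicle and 571 to 600 CPM with IL4. The sums with IL4 were close to the level of the IL4 effector Chil3 alone, given below. Of these 9 markers 2 rose and 1 fell by the test given below (22.2% and 11.1%, against 14.5% and 12% of all genes tested). Their median log2 fold change was 0.2, so most of them did not share the rise of the sum. For 9 erythroid and megakaryocyte markers they were 177 to 255 and 130 to 202 CPM. The part of such cells in the results was not tested. Transcripts of IL4 itself were 0 to 3 counts per library and those of Il13 0 or 1.

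The vehicle libraries differed from each other before any treatment was compared. Arg1 (ENSMUSG00000019987, chromosome 10, 24915221 to 24927484, minus strand), the enzyme that turns arginine into ornithine and a classic marker of IL4, was at 2.63, 117, 78.4 and 4.27 CPM in vehicle libraries 1, 2, 3 and 4. Libraries 2 and 3 were high and libraries 1 and 4 low, and all 4 lay below the IL4 libraries at 571, 742 and 491 CPM. The same pair of libraries was nearer to the IL4 libraries in most other IL4 genes. Msx3, a homeobox gene, was at 0.0775, 8.6, 3.23 and 0.187 CPM with vehicle and 23.8, 42.3 and 23.9 CPM with IL4. The potassium channel gene Kcnd3 was at 0.0387, 4.22, 2.26 and 0 CPM with vehicle and 26.2, 24.3 and 35 CPM with IL4. In both genes, as in Arg1, vehicle library 2 was the highest and library 3 the next. These genes are shown here as examples of the split and are no separate support for it. A chi-square of the counts, divided by the number of genes, was 9.1 between vehicle libraries 1 and 4 and 30.4 to 39.7 in the other 5 pairs, where sampling noise alone gives about 1. No library pair agreed within sampling noise. Among the IL4 libraries, the value was 10.3 between 1 and 2 and 45.6 and 50.4 for library 4 against them. For named genes whose fold change moved by over 1.5 times without vehicle libraries 2 and 3, the value without them, or a ratio of counts where they held almost all vehicle counts, is therefore given beside the result, and what sets these libraries apart was not tested. The labels give no reason to leave these libraries out, and they were picked for their levels of IL4 genes. Larger fold changes of such genes without them follow from that choice, and p-values of fits without 1 or both are descriptions.

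**Figure D1:**
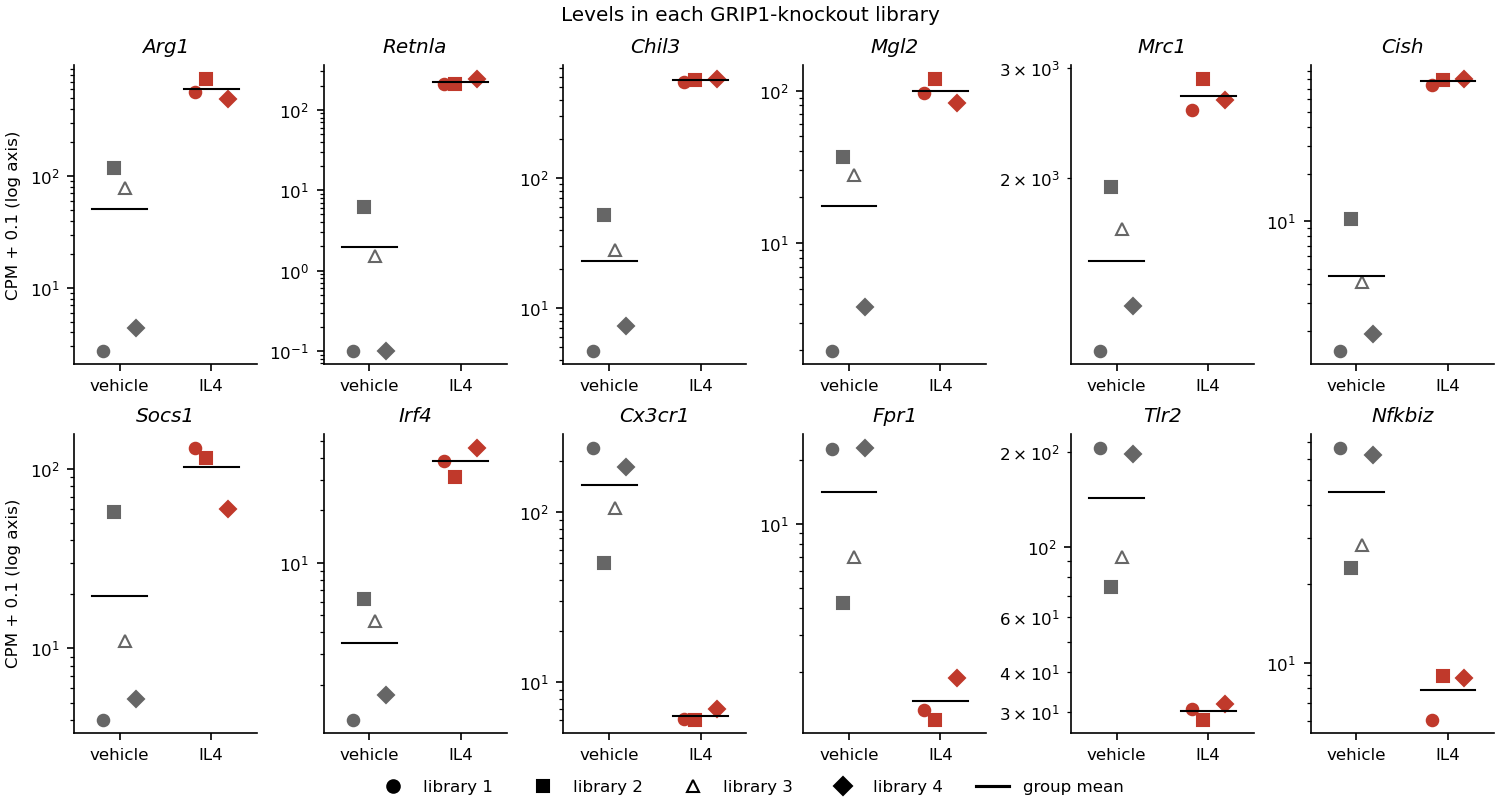
Levels of 12 genes in each knockout library, as CPM + 0.1 on a log axis, with vehicle in grey and IL4 in red, a symbol for each replicate number and a line at the group mean. In the genes that rose, vehicle libraries 2 and 3 lie above libraries 1 and 4, and in the 4 that fell they lie below them, while all IL4 libraries lie outside the vehicle range.

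IL4 changed 3873 of 14589 genes in knockout cells, or 26.5%, by edgeR's quasi-likelihood test at an adjusted p under 0.05. Of these, 2120 rose (14.5%) and 1753 fell (12%), and 431 rises (2.95%) and 285 falls (1.95%) were at least 2-fold. The libraries of the groups did not overlap in 3914 genes (26.8%). The median log2 fold change of all genes tested was 0.01. The 14.5% higher and 12% lower are the background for the counts of each gene list below. Without vehicle libraries 2 and 3, 1854 genes rose (12.7%) and 1838 fell (12.6%), and the calls of at least 2-fold went from 716 to 950. With only the 7 libraries in the fit, and so fewer to estimate the spread from, 1739 genes were called. In bulk RNA, fewer cells of a type and less RNA per cell cannot be told apart.

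The effectors of alternative activation were mostly higher with IL4. Of 30 genes on the list, 27 were tested, 24 rose and none fell, with a median log2 fold change of 2.49. The resistin-like secreted protein Retnla (ENSMUSG00000061100, chromosome 16, 48842551 to 48844461, plus strand) was at 0, 6.06, 1.42 and 0 CPM with vehicle and 209, 210.1 and 243 CPM with IL4. Its level was 0 counts in vehicle libraries 1 and 4, and every IL4 library was far above every vehicle library (log2 fold change 7.0 ± 0.63 (adjusted p = 3.42e-07), and 8.46 without vehicle library 2). Against libraries 1 and 4 alone, with a floor of 3 counts over both, Retnla was at least 4248-fold higher with IL4. The chitinase-like lectin Chil3 (chromosome 3, 106147554 to 106167564) was at 4.61, 51.8, 27.9 and 7.23 CPM with vehicle and 552, 571 and 579 CPM with IL4, a rise of 4.64 ± 0.70 (adjusted p = 5.51e-05), of 5.37 without vehicle library 2 and of 6.56 without 2 and 3. Its near-identical neighbour Chil4 had 3 counts in all vehicle libraries and 217 with IL4, a ratio of 122 with a 95% counting interval of 41.2 to 596 (at least 53.4-fold against vehicle libraries 1 and 4, with 0 counts), and reads of this pair may be shared between the copies.

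Arg1 rose with IL4 by 3.57 ± 1.19 (adjusted p = 0.0314) on the log2 scale, a call that rests on the vehicle libraries. Without vehicle libraries 2 and 3 its log2 fold change was 7.41 (adjusted p = 0.00381), and with library 2 alone left out it was 4.36. Those libraries were left out for their Arg1 levels, so the larger values and the smaller p follow from that choice. The call was lost without vehicle library 1 (adjusted p = 0.0722), vehicle library 4 (0.076) or IL4 library 2 (0.0568). It was also lost with no filter on low counts (adjusted p = 0.0779), with only the 7 libraries (0.122) and in the knockout libraries alone (0.0809). With the replicate number as a block in those knockout libraries the log2 fold change was 5.12 (adjusted p = 0.0345). The galactose-binding lectin Mgl2 (chromosome 11, 70130329 to 70137550) had the same shape. It was at 1.86, 36.5, 27.8 and 3.71 CPM with vehicle and 95.9, 119 and 82.9 CPM with IL4, with no overlap, and its log2 fold change was 2.5 ± 0.78 (adjusted p = 0.0219). For Mgl2 this became 5.12 without vehicle libraries 2 and 3, 3.09 without library 2 alone and 3.4 with the block. Its call was lost without vehicle library 1 (adjusted p = 0.0521), vehicle library 4 (0.0601) or IL4 library 2 (0.0518). It was also lost with DESeq2 (adjusted p = 0.11), with no filter on low counts (0.0579), with only the 7 libraries (0.139) and in the knockout libraries alone without the block (0.0581).

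Other effectors were called in each fit that left out 1 library, and most were further from vehicle once libraries 2 and 3 were left out. The mannose receptor Mrc1 (chromosome 2, 14229392 to 14332057), already abundant, was at 1058, 1933, 1655 and 1247 CPM with vehicle and 2564, 2878 and 2666 CPM with IL4, a log2 fold change of 0.88 ± 0.19 (adjusted p = 0.00161). The phenylalanine oxidase Il4i1 was at 1.05, 3.48, 3.05 and 1.37 CPM with vehicle and 30.6, 25.5 and 18.3 CPM with IL4, and rose by 3.45 ± 0.27, or 4.33 without vehicle libraries 2 and 3. Matrix fibronectin, Fn1, rose from 18.8, 32.2, 31 and 8.48 CPM to 151, 182 and 201 CPM, with no overlap between the groups (log2 fold change 2.97 ± 0.54, and 3.71 without those libraries). The cationic amino acid transporter Slc7a2, which brings arginine into the cell, was at 14.4, 114, 89.4 and 25.4 CPM with vehicle and 349, 402 and 429.8 CPM with IL4 (log2 fold change 2.69 ± 0.67 (adjusted p = 0.00513)). E-cadherin, Cdh1, an adhesion protein linked to macrophage fusion, was at 2.05, 14.3, 13.9 and 2.37 CPM with vehicle and 36.2, 51.9 and 50.8 CPM with IL4, and the VEGF receptor Flt1 at 10.6, 55.8, 53.5 and 9.35 CPM with vehicle and 146, 166 and 166 CPM with IL4. In these 3 genes vehicle libraries 2 and 3 again held several times the level of 1 and 4, and the log2 fold changes without them were 4.29, 4.37 and 3.99 in place of 2.69, 2.49 and 2.3. The eotaxin-family chemokine Ccl24 did not show that split, at 0.155, 0.369, 0.299 and 0.374 CPM with vehicle and 2.52, 2.27 and 3.32 CPM with IL4 (log2 fold change 3.15 ± 0.38 (adjusted p = 2.09e-06), and 3.28 without them). Without vehicle libraries 2 and 3, 23 of the 27 effectors rose and their median was 3.71. The median was the same with genes at 0 counts set to their lower bound. Those bounds lie above the median, so it could not move. The 3 tested effectors that passed no threshold were Alox15 (−0.19), Tgm2 (0.06) and Il1rn (0.06).

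**Figure D2:**
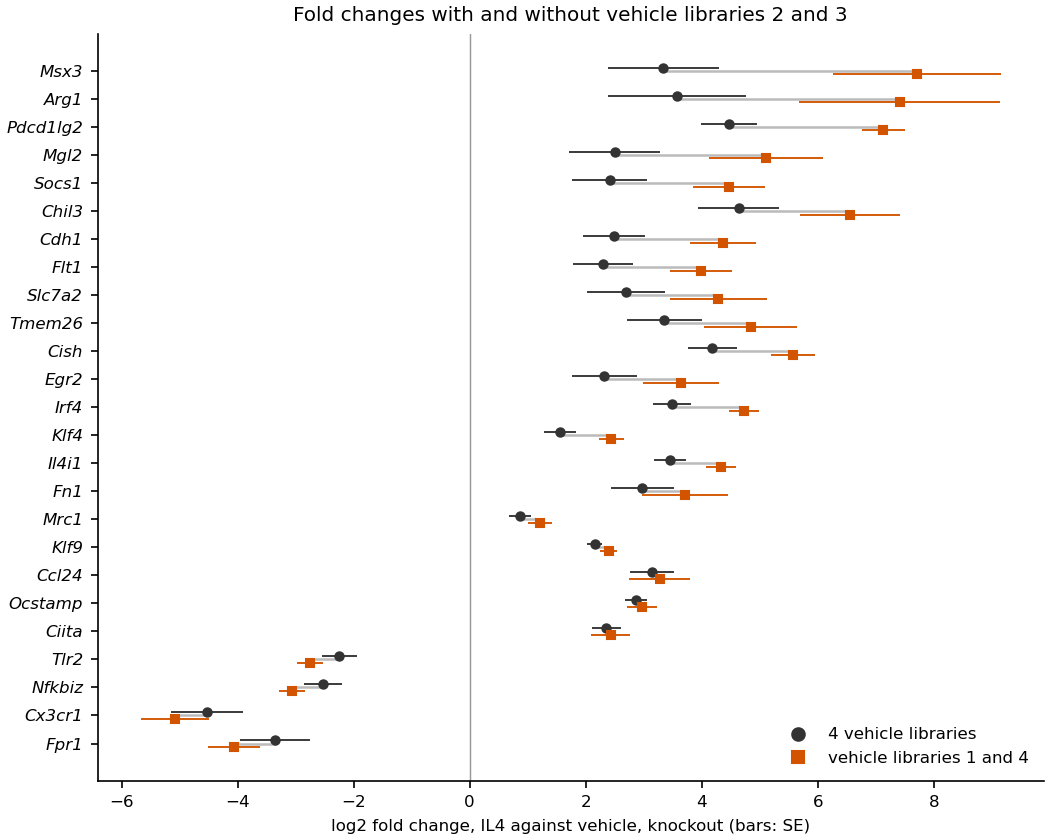
Log2 fold changes of the genes named on the axis, IL4 against vehicle in knockout cells. They were fitted with all 4 vehicle libraries (circles) and with vehicle libraries 1 and 4 (squares). Bars are 1 approximate SE, derived from the F statistic. Arg1 went from 3.57 to 7.41 and Mgl2 from 2.5 to 5.12, while Ccl24 went from 3.15 to 3.28 and Ciita from 2.35 to 2.44.

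Some of the promoters of these genes hold the letters that STAT6 is known to bind. RefSeq promoters on GRCm38.p6, 250 bases before to 50 after a start site, were searched for TTCNNNNGAA, which reads alike on both strands so that 1 search covers both, and separately for TTCNNNGAA, a match of which may overlap one of the first. Of the 15 largest rises 12 had a promoter in the table and 2 of these held the motif, Retnla and Pdcd1lg2. They are shown with Tmem26, a transmembrane protein gene that rose in every IL4 library and has 2 matches, all printed 5′ to 3′ on the strand of the gene with the matches in capitals.
Retnla, chr16:48842359-48842658, plus strand: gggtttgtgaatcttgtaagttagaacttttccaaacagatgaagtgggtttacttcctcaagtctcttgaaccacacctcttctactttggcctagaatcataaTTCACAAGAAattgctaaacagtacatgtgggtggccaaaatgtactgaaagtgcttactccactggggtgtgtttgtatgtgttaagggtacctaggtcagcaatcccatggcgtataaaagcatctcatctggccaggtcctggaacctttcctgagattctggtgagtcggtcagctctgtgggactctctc
Pdcd1lg2, chr19:29410669-29410968, plus strand: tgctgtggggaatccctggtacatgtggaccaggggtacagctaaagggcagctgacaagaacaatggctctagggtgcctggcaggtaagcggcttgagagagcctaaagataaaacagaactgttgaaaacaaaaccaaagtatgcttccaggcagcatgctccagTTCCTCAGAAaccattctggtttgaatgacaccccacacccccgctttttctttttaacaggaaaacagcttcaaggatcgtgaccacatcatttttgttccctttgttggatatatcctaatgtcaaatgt
Tmem26, chr10:68723496-68723795, plus strand: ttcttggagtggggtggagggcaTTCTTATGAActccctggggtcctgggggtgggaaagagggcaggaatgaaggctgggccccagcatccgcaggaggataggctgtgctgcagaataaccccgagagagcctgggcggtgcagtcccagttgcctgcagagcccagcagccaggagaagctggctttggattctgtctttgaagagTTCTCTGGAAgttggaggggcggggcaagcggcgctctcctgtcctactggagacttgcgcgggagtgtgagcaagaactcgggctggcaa
The match lies 145 bases upstream of the start of Retnla, 82 bases upstream of that of Pdcd1lg2, and 227 and 41 bases upstream of that of Tmem26. Among all promoters 6.95% held the motif, as did 6.77% of the genes tested that had a promoter. The share was 13.4% in genes that rose at least 2-fold (39 of 292 with a promoter) and 4.48% in those that fell at least 2-fold (9 of 201). For TTCNNNGAA, the spacing known for other STAT proteins, the shares were 8.3% of all promoters, 7.88% of these rises and 8.46% of these falls. A match describes the letters and does not show that a factor was bound. Pdcd1lg2, which encodes the PD-1 ligand PD-L2, was at 0.0775, 4.59, 2.73 and 0.499 CPM with vehicle and 44.2, 40.4 and 47.8 CPM with IL4, without overlap (log2 fold change 4.48 ± 0.48 (adjusted p = 9.55e-07), 5.13 without vehicle library 2 and 7.13 without 2 and 3). Tmem26 was at 17.6, 108, 82.6 and 23 CPM with vehicle and 532, 583 and 662 CPM with IL4, and rose by 3.35 ± 0.65 (adjusted p = 0.000653), or 4.85 without vehicle libraries 2 and 3.

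In the receptor and signalling list, 8 of 22 genes rose and 7 fell, with a median of 0.07, and the rises were led by the feedback inhibitors. Cish, a SOCS family protein induced by STAT factors (chromosome 9, 107296026 to 107302784), was at 1.39, 10.3, 4.01 and 1.81 CPM with vehicle and 73.3, 79 and 80.6 CPM with IL4 (log2 fold change 4.18 ± 0.42 (adjusted p = 4.87e-07), 4.94 without vehicle library 2 and 5.57 without 2 and 3). Socs2 was at 0.658, 2.91, 1.22 and 0.592 CPM with vehicle and 12.4, 12.7 and 16.4 CPM with IL4, a rise of 3.4 ± 0.46, of 4.0 without vehicle library 2 and of 4.45 without 2 and 3. Both genes were higher in every IL4 library than in any vehicle library. Socs1, which blocks Janus kinases (chromosome 16, 10782240 to 10785536), was at 3.91, 57.4, 11 and 5.11 CPM with vehicle and 131, 115 and 59.3 CPM with IL4. Vehicle library 2 came close to IL4 library 4, without overlap, and the log2 fold change of 2.42 ± 0.65 (adjusted p = 0.00859) became 3.89 (adjusted p = 1.44e-05) without it and 4.47 without libraries 2 and 3. The Socs1 call was lost with only the 7 libraries (adjusted p = 0.164) and in the knockout libraries alone (0.055), and held there with the block (0.0133). Socs3, which acts on other cytokine receptors, fell by 1.0 on the log2 scale (adjusted p = 0.000184).

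The kinase Jak2 was at 63, 127, 114 and 75.7 CPM with vehicle and 256, 268 and 308 CPM with IL4, a rise of 1.55 ± 0.22 (adjusted p = 2.98e-05). The insulin receptor substrate Irs2, an adaptor of the IL4 receptor, rose by 0.67 ± 0.11, with vehicle libraries at 30 to 41.7 CPM and IL4 libraries at 54.6 to 62.1 CPM. Stat6 was at 297, 267, 281 and 300.4 CPM with vehicle and 284, 289.6 and 294 CPM with IL4, and the groups overlapped. Il4ra, the receptor chain that binds IL4, was at 226, 245, 235 and 245 CPM with vehicle and 179, 231 and 173 CPM with IL4. IL4 library 2 lay within the vehicle range and the other IL4 libraries below it. The log2 fold change of Il4ra was −0.29 ± 0.09 (adjusted p = 0.0179), and the call was lost without IL4 library 1 (adjusted p = 0.0862), without IL4 library 4 (0.125) and without vehicle libraries 2 and 3 (0.0569).

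Of 30 macrophage and IL4-linked transcription factors 15 rose and 2 fell, with a median of 0.36, and both counts were the same without vehicle libraries 2 and 3. Irf4, a factor of alternative activation (chromosome 13, 30749226 to 30766976), was at 1.16, 6.1, 4.55 and 1.65 CPM with vehicle and 38, 30.7 and 45.6 CPM with IL4 (log2 fold change 3.49 ± 0.32 (adjusted p = 1.08e-07)). Klf9, a Krüppel-like factor, was at 3.76, 6.88, 6.41 and 5.77 CPM with vehicle and 26.8, 20.6 and 29.2 CPM with IL4, a rise of 2.16 ± 0.13 that was 2.4 without vehicle libraries 2 and 3. Klf4, which works with STAT6 in macrophages, was at 16.8, 49.1, 35.9 and 14.5 CPM with vehicle and 94.2, 83.8 and 78.8 CPM with IL4, and rose by 1.56 ± 0.28. All IL4 libraries lay above all vehicle libraries in these 3 genes, and in Irf4 and Klf4 vehicle libraries 2 and 3 lay between libraries 1 and 4 and the IL4 libraries (4.73 and 2.44 without them). Egr2, an early growth response factor, rose by 2.32 ± 0.56, Batf3 by 2.69 ± 0.36 and Bhlhe40 by 1.83 ± 0.32, and without vehicle libraries 2 and 3 by 3.64, 3.77 and 2.43. The lipid-sensing receptor Pparg, known to support alternative activation, was at 25.8, 38.5, 34.6 and 26.7 CPM with vehicle and 68.3, 64.2 and 94.1 CPM with IL4. Maf, a factor of resident-type macrophages, fell by 0.65 on the log2 scale (adjusted p = 0.00046). Of 15 p160 coactivators and partner coregulators, 5 rose and none fell, but 2 rose without vehicle libraries 2 and 3. Ncoa1 and Ncoa3, the other p160 genes, had values of 0.11 and 0.13 and passed no threshold.

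MHC class II genes, which present peptides to CD4 T cells, rose in 8 of 11 members, with a median of 1.1, and 1 fell. Their master regulator Ciita (chromosome 16, 10480059 to 10528418) was at 2.83, 3.77, 4.85 and 4.8 CPM with vehicle and 26.8, 17.7 and 18.3 CPM with IL4 (log2 fold change 2.35 ± 0.25 (adjusted p = 4.87e-07)). The chain gene H2-Ab1 was at 48.4, 86.4, 66.9 and 75.3 CPM with vehicle and 169, 143 and 143 CPM with IL4, the invariant chain Cd74 at 232, 385, 314 and 318 CPM with vehicle and 657, 602 and 634 CPM with IL4 and the peptide exchange factor H2-DMa at 19.6, 44.8, 36.7 and 28.4 CPM with vehicle and 91, 91 and 91.7 CPM with IL4, each without overlap. The member that fell was H2-Ob, which encodes a part of the H2-O inhibitor of peptide exchange, at 0.968, 0.287, 0.659 and 0.654 CPM with vehicle and 0.0971, 0.218 and 0.162 CPM with IL4. The counts of this list were the same without vehicle libraries 2 and 3. Among 16 costimulatory and checkpoint molecules 6 rose and 3 fell. The CD28-family ligand gene Icosl (chromosome 10, 78069302 to 78083913) was at 19.2, 10.7, 14.3 and 17.1 CPM with vehicle and 2.3, 3.45 and 2.71 CPM with IL4, a log2 fold change of −2.45 ± 0.21 (adjusted p = 1.72e-08), while Cd274, encoding PD-L1, rose by 1.48 ± 0.31.

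Cell surface receptors for chemoattractants changed in opposite directions, with 8 of 27 higher and 11 lower. Cx3cr1, the fractalkine receptor, fell the most of the list (ENSMUSG00000052336, chromosome 9, 119901616 to 120069879, minus strand) and was at 239, 49.9, 105 and 184 CPM with vehicle and 6.02, 5.94 and 6.89 CPM with IL4 (log2 fold change −4.52 ± 0.62 (adjusted p = 2.15e-05)). The formyl peptide receptor Fpr1 (chromosome 17, 17876471 to 17883940) was at 22.5, 4.14, 6.85 and 22.7 CPM with vehicle and 1.23, 1.09 and 1.78 CPM with IL4, and Fpr2 had a log2 fold change of −3.06 ± 0.50. In Cx3cr1 and Fpr1 vehicle libraries 2 and 3 were the low ones, still above every IL4 library, and without them Cx3cr1 was at −5.08 and Fpr1 at −4.06, against −3.35 ± 0.60 with them. The complement receptor C5ar1 was at 406, 343, 317 and 364 CPM with vehicle and 124, 175 and 170.0 CPM with IL4, and the sphingosine phosphate receptor S1pr1 at 159.8, 133, 152 and 153 CPM with vehicle and 59.9, 77.4 and 73.9 CPM with IL4. These receptors fell by 1.2 and 1.09 on the log2 scale, with vehicle libraries close together. Cxcr2, a receptor best known in neutrophils, rose from 0.155, 0.205, 0.20 and 0.218 CPM to 1.84, 1.53 and 1.9 CPM (3.14 ± 0.53). Of 12 neutrophil markers tested 3 rose and none fell, with Retnlg at 0 counts in all 7 libraries. The part of other cells in the rise of Cxcr2 was not tested.

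The Toll-like receptor list also split, with 6 of 22 genes higher and 8 lower. Tlr2, the receptor for bacterial lipoproteins (chromosome 3, 83836272 to 83841767), was at 206, 74.6, 93.1 and 197 CPM with vehicle and 30.4, 28.2 and 31.6 CPM with IL4 (log2 fold change −2.24 ± 0.30 (adjusted p = 1.49e-05)). Cd14, the lipopolysaccharide co-receptor, was at 282, 119.8, 166 and 271 CPM with vehicle and 38.5, 41.6 and 37.9 CPM with IL4, a log2 fold change of −2.41 ± 0.27. Tlr4, the receptor that works with it, was at 112, 99, 109.7 and 103 CPM with vehicle and 141, 133 and 149.5 CPM with IL4, and rose by 0.41 ± 0.09. Tlr8 rose by 0.98 ± 0.18 and Tlr1 by 0.68 ± 0.11, with IL4 library 4 the highest of the IL4 libraries in both, at 789 and 132 CPM. Of 25 proinflammatory and NF-κB genes 7 fell and 1 rose, and 9 fell without vehicle libraries 2 and 3. Nfkbiz, the nuclear IκBζ protein, was at 66.4, 22.9, 28 and 62.2 CPM with vehicle and 5.95, 8.77 and 8.67 CPM with IL4 (log2 fold change −2.53 ± 0.33 (adjusted p = 7.65e-06)). The inflammasome sensor Nlrp3 was at 84, 60.6, 66.2 and 78.3 CPM with vehicle and 27.3, 32.8 and 28.8 CPM with IL4 and the cytokine Tnf at 105, 57.7, 61.5 and 86.1 CPM with vehicle and 31.3, 35.4 and 45.7 CPM with IL4, both without overlap. Rel was the member that rose, by 0.55 ± 0.11. Fcgr1, the high-affinity IgG receptor, fell by 1.25 on the log2 scale, while Fcgr3 rose by 0.61 ± 0.09.

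Interferon-stimulated genes, which make antiviral proteins, were lower with IL4 in 19 of 38 members and higher in 2, with a median log2 fold change of −0.58. Rtp4 (chromosome 16, 23520291 to 23614222) was at 20.8, 7.74, 5.09 and 30.5 CPM with vehicle and 2.62, 2.58 and 3.12 CPM with IL4 (log2 fold change −2.53 ± 0.52 (adjusted p = 0.00108)). Oas2, which makes the activator of RNase L, was at 17.5, 6.72, 5.77 and 19.6 CPM with vehicle and 3.27, 4.15 and 3.73 CPM with IL4, and the ubiquitin-like Isg15 at 6.04, 4.06, 3.67 and 9.97 CPM with vehicle and 2.2, 3.06 and 1.9 CPM with IL4. In Rtp4 and Oas2 vehicle libraries 1 and 4 held the high values, and libraries 2 and 3 were still above every IL4 library. The summed level of the 40 genes on the list did not separate in this way. It was 787, 604, 534 and 963 CPM with vehicle and 553, 558 and 606 CPM with IL4. In that sum vehicle library 2 lay within the IL4 range and library 3 below it. Without vehicle libraries 2 and 3 the list had 29 members lower and 1 higher, with a median of −0.89, Rtp4 at −3.22 and Oas2 at −2.34 in place of −1.74. Usp18, a protease that removes Isg15 and restrains interferon signalling, went the other way, at 5.65, 7.33, 3.75 and 8.79 CPM with vehicle and 16.7, 22.7 and 16.4 CPM with IL4 (1.55 ± 0.22 (adjusted p = 1.70e-05)).

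Genes of proliferation and metabolism changed by smaller amounts. Of 36 cell cycle genes 26 fell and none rose, with a median of −0.36, while without vehicle libraries 2 and 3 the counts were 23 and 1. The mitotic kinase Cdk1 was at 180.0, 163, 171 and 167 CPM with vehicle and 135, 122 and 121 CPM with IL4 (log2 fold change −0.43 ± 0.09 (adjusted p = 0.00109)), and the survivin gene Birc5 fell by 0.55 on the log2 scale. The proliferation marker Mki67 was at 616, 314, 476 and 498 CPM with vehicle and 439, 303 and 585 CPM with IL4, and the groups overlapped. Of 24 cholesterol synthesis genes 14 rose and none fell, with a median of 0.29. Dhcr7, the last step of the pathway, was at 51, 62.9, 64.4 and 63.7 CPM with vehicle and 99.4, 94.4 and 115 CPM with IL4 (0.77 ± 0.10 (adjusted p = 3.91e-06)), and Hmgcs1, an early step, rose by 0.53 ± 0.09. Of 27 genes of fatty acid uptake, oxidation and storage 11 rose and none fell, with a median of 0.17. The mitochondrial carnitine transferase Cpt1a was at 197, 203, 226 and 197 CPM with vehicle and 249, 259.6 and 258 CPM with IL4, and rose by 0.32 ± 0.07. The coactivator Ppargc1b, tied to mitochondrial biogenesis in IL4-treated macrophages, rose by 1.19 ± 0.15 (adjusted p = 2.41e-06). Glycolysis genes had 4 rises and 4 falls among 18 (22.2% each, against 14.5% and 12% of all genes tested), with a median of −0.01. The phosphofructokinase Pfkp rose by 0.83 ± 0.08, whereas Pfkl had −0.72 ± 0.12 and the glucose transporter Slc2a3 −0.82 ± 0.10.

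**Figure D3:**
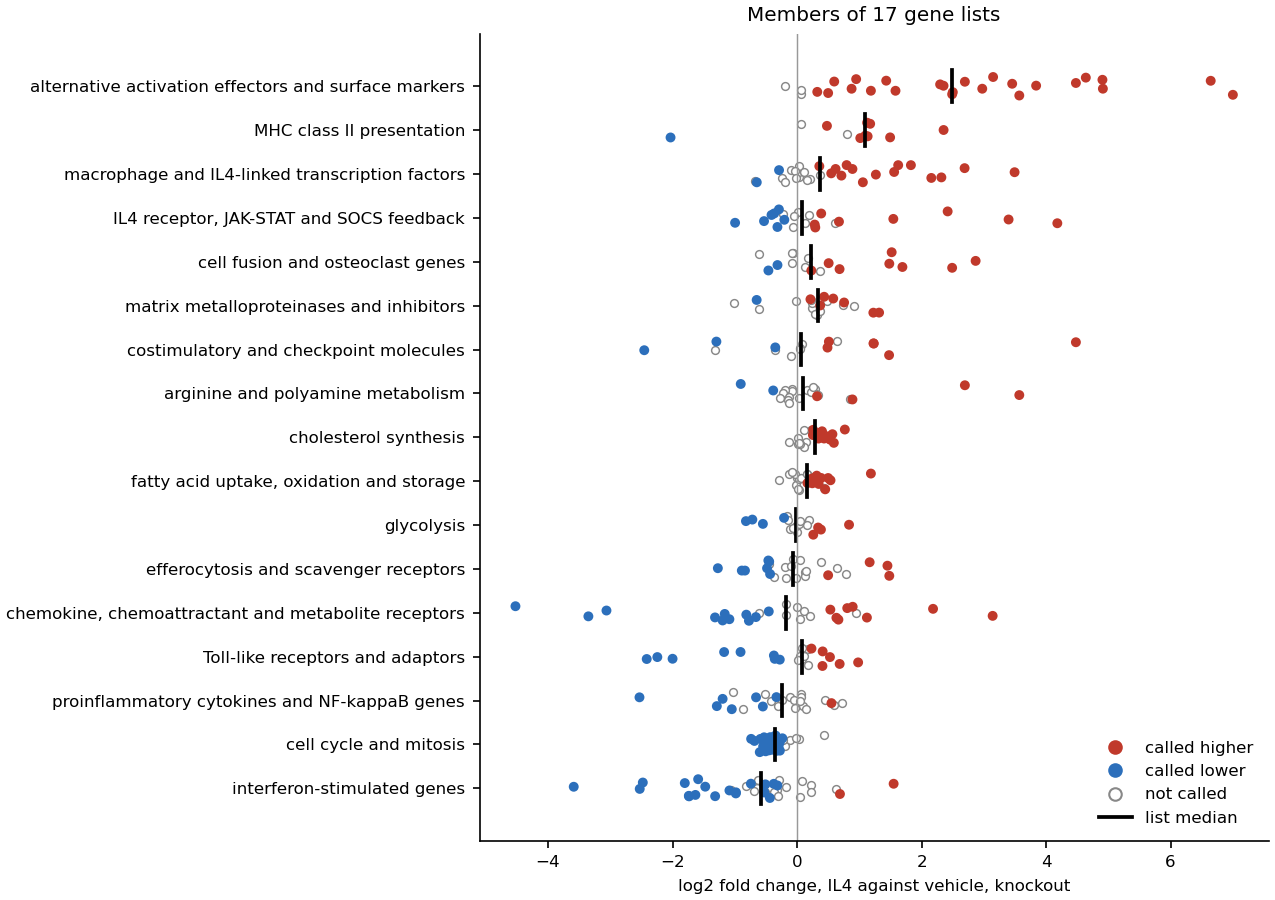
Log2 fold change, IL4 against vehicle in knockout cells, of each tested member of 17 gene lists, with filled points for calls at an adjusted p under 0.05, open points for the rest and a bar at the list median. The effectors have their median at 2.49 and no member called lower, while the interferon-stimulated genes have theirs at −0.58 and the cell cycle genes at −0.36.

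Genes of cell fusion, by which IL4-treated macrophages form giant cells, rose in 8 of 17 members and fell in 2. Ocstamp, a membrane protein needed for fusion (chromosome 2, 165393760 to 165400405), was at 1.16, 0.983, 1.28 and 0.841 CPM with vehicle and 9.48, 6.07 and 8.02 CPM with IL4 (log2 fold change 2.87 ± 0.20 (adjusted p = 1.11e-09)), and its relative Dcstamp at 2.17, 2.09, 3.33 and 1.4 CPM with vehicle and 10.1, 5.37 and 6.52 CPM with IL4. In Ocstamp the vehicle libraries were close together, and its value without libraries 2 and 3 was 2.97. The proton pump subunit Atp6v0d2 rose by 1.52 ± 0.37 (adjusted p = 0.00419). Of 20 matrix metalloproteinases and inhibitors 7 rose and 1 fell. The collagenase Mmp13 was at 15.3, 41.3, 30.1 and 14.2 CPM with vehicle and 43.2, 79.5 and 65.9 CPM with IL4 (1.32 ± 0.32, and 2.08 without vehicle libraries 2 and 3), and the membrane-bound Mmp14 was the member that fell, by 0.65 on the log2 scale. Of 25 efferocytosis and scavenger genes 4 rose and 7 fell (16% and 28%, against 14.5% and 12% of all genes tested). Stab1 was at 2177, 1774, 2052 and 2133 CPM with vehicle and 1116, 1409 and 891 CPM with IL4 and Stab2, a related hyaluronan receptor of lower abundance, at 1.51, 2.38, 1.96 and 2.12 CPM with vehicle and 5.56, 4.98 and 5.79 CPM with IL4. Their log2 fold changes were −0.84 ± 0.12 and 1.45 ± 0.16. The sterol exporter Abcg1 rose by 1.17 ± 0.12 (adjusted p = 1.65e-07).

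Several genes with large rises have their best known roles in other cells. The sodium channel gene Scn3a (chromosome 2, 65457118 to 65567627) was at 0.0387, 0.614, 0.419 and 0 CPM with vehicle and 35.5, 33.5 and 38 CPM with IL4 (log2 fold change 7.0 ± 0.73 (adjusted p = 3.69e-06)), and the tubulin gene Tuba8 at 0.0387, 0.86, 0.379 and 0.125 CPM with vehicle and 12.6, 23.2 and 18 CPM with IL4 (5.69 ± 0.47, 6.37 without vehicle library 2 and 7.62 without 2 and 3). Rasgrp1, a Ras activator of lymphocytes, was at 0.155, 1.8, 1.74 and 0.28 CPM with vehicle and 22.1, 18.8 and 31.7 CPM with IL4 (4.55 ± 0.48, and 6.72 without vehicle libraries 2 and 3). The log2 fold change of Kcnd3 was 4.13 ± 0.93 (adjusted p = 0.00395), and 4.98 without vehicle library 2. Its call was lost with DESeq2 (adjusted p = 0.196), as was that of Msx3 (3.34 ± 0.96, 4.48 without vehicle library 2, 7.71 without 2 and 3, 0.277 with DESeq2). Against vehicle libraries 1 and 4 alone, which held 1 count of Scn3a and 1 of Kcnd3 in sum, the ratios were 2067 (95% counting interval 371 to 81671) and 1645 (295 to 65004). Gata3, a factor of type 2 T cells, rose from 0.116, 0.328, 0.319 and 0.156 CPM to 2.43, 2.31 and 2.92 CPM (3.41 ± 0.30 (adjusted p = 2.56e-08), and 4.16 without vehicle libraries 2 and 3). Of 4 T and NK cell markers tested, 2 rose (Gata3 and Il7r). The T cell receptor genes Cd3d and Cd3e had 0 to 2 counts per library. The integrin Itgax, used to mark dendritic cells and also made by macrophages, was at 71.3, 224, 184 and 126 CPM with vehicle and 559, 534 and 629 CPM with IL4 (1.92 ± 0.35, and 2.53 without vehicle libraries 2 and 3). Of 6 dendritic markers tested 3 rose.

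Growth factors of tissue repair had 4 rises and 2 falls among 22 genes, with a median of −0.01. These shares of 18.2% and 9.09% are close to the 14.5% and 12% of all genes tested. Hbegf, a ligand of the EGF receptor, was at 0.581, 3.32, 1.48 and 0.436 CPM with vehicle and 7.54, 13.9 and 9.11 CPM with IL4 (2.83 ± 0.64 (adjusted p = 0.00224), 3.52 without vehicle library 2 and 4.31 without 2 and 3). Fgf2 was at 0.31, 0.778, 0.619 and 0.249 CPM with vehicle and 2.62, 4.23 and 5.51 CPM with IL4 (3.05 ± 0.51, and 3.85 without vehicle libraries 2 and 3), and the platelet-derived growth factor Pdgfc rose by 1.03 ± 0.15. Il10, the anti-inflammatory cytokine, fell by 0.70 on the log2 scale, from 5.27, 3.81, 3.93 and 4.18 CPM to 2.81, 2.44 and 2.63 CPM. Among the other large falls were those of Marcksl1 (−2.67 ± 0.31), the inhibitory sialic acid receptor Siglece (−2.06 ± 0.34) and the iron exporter Slc40a1 (−1.94 ± 0.30). Slc40a1 was at 64.9, 25.7, 31.7 and 72.6 CPM with vehicle and 14.6, 11.3 and 12 CPM with IL4, without overlap.

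The response was set beside that of wild-type cells, which shares no library with it. IL4 changed 4388 genes in wild type, 2163 higher (14.8%) and 2225 lower (15.3%). In both genotypes 2762 genes changed in the same direction, which is 71.3% of the calls in knockout and 62.9% of those in wild type, and 2 changed in opposite directions, Layn and Lipg. The difference between the responses, knockout minus wild type, was itself called in 4 genes (0.0274% of those tested), and in 1323 at an unadjusted p under 0.05. Layn and Lipg were not among these 4. The microtubule protein gene Map2 was at 3.52, 5.08, 6.43 and 3.15 CPM with vehicle and 14.2, 8.99 and 15.3 CPM with IL4 in knockout, and its response was smaller than in wild type, by −2.6 ± 0.46 (adjusted p = 0.0362). The membrane protein gene Ms4a4a (75, 226, 177 and 132 CPM with vehicle and 276, 318 and 252 CPM with IL4) had a difference of −1.97 ± 0.31 (adjusted p = 0.0252), and the GTPase-activating gene Arhgap25 one of −0.77 ± 0.13 (adjusted p = 0.0341). The response of Pdk1, a kinase that shuts pyruvate dehydrogenase, was a smaller fall in knockout, with a difference of 0.54 ± 0.09 (adjusted p = 0.0252). In Map2, Ms4a4a and Arhgap25 the mean of the wild-type vehicle libraries was 0.648, 23.7 and 108 CPM, against 4.54, 153 and 157 CPM in knockout. Without vehicle libraries 2 and 3 the difference was called in 2 genes, among them Ms4a4a (−1.42, adjusted p = 0.00966) but not Map2 (−2.15, 0.273), Arhgap25 (−0.57, 0.107) or Pdk1 (0.54, 0.107). The number of calls ran from 0 to 95 when 1 library was left out. It was 95 without knockout vehicle library 1, 10 without wild-type IL4 library 1 and 8 without knockout IL4 library 1. It was 2 without knockout IL4 library 4 or wild-type vehicle library 2, and 1 without knockout vehicle library 2. No gene was called without knockout vehicle library 3, knockout IL4 library 2, wild-type vehicle library 1 or 3, or wild-type IL4 library 2. With the replicate number as a block within genotype, 149 genes were called.

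The log2 fold change of Arg1 was 3.57 in knockout and 8.55 in wild type, and that difference of −4.98 ± 1.97 (adjusted p = 0.443) was not called. For the matricellular protein gene Ccn3 (0.194, 0.287, 0.399 and 0.0935 CPM with vehicle and 11.4, 9.82 and 17.3 CPM with IL4) the values were 5.62 ± 0.45 in knockout (6.47 without vehicle libraries 2 and 3) and 1.65 in wild type, a difference of 3.97 ± 0.82 (adjusted p = 0.0921). The largest responses of wild type were then followed in each library. IL4 raised 125 genes at least 4-fold in wild type, and 118 of these rose in knockout. Since these genes were chosen for a large response in wild type, their wild-type values are a description and are raised by the choice. Their median log2 fold change was 2.86 in wild type and 1.76 in knockout, or 2.43 without vehicle libraries 2 and 3. Relative to the mean of wild-type vehicle, their median level was 0.22, 1.5, 1.22 and 0.54 log2 units higher in knockout vehicle libraries 1 to 4, and 2.61, 2.58 and 2.65 higher in the IL4 libraries, where wild-type IL4 libraries had 2.66 to 2.75. Gene by gene, the median log2 ratio of the IL4 level in knockout to that in wild type was 0.02. Vehicle libraries 2 and 3 lay between the vehicle and IL4 levels. Of 44 genes lowered at least 4-fold in wild type 42 fell in knockout, with medians of −2.37 and −1.72, and −2.15 without vehicle libraries 2 and 3. The knockout vehicle libraries were at −0.41, −1.46, −1.26 and −0.52 for these, and the IL4 libraries at −2.51, −2.4 and −2.17.

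**Figure D4:**
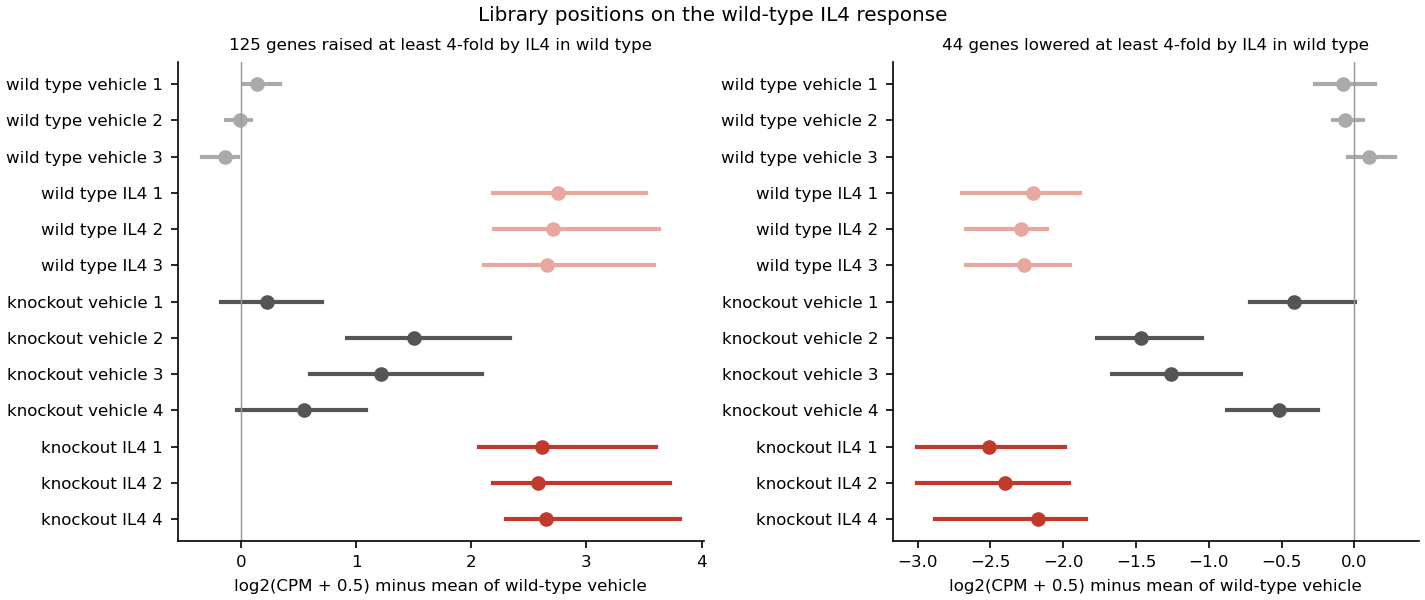
Position of each library on the genes that IL4 raised (left, 125 genes) or lowered (right, 44 genes) at least 4-fold in wild type, as log2(CPM + 0.5) minus the mean of the wild-type vehicle libraries, with a point at the median over genes and a line from the lower to the upper quartile. Knockout vehicle libraries 2 and 3 have medians of 1.5 and 1.22 in the raised genes, against 0.22 and 0.54 in libraries 1 and 4.

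**Figure D5:**
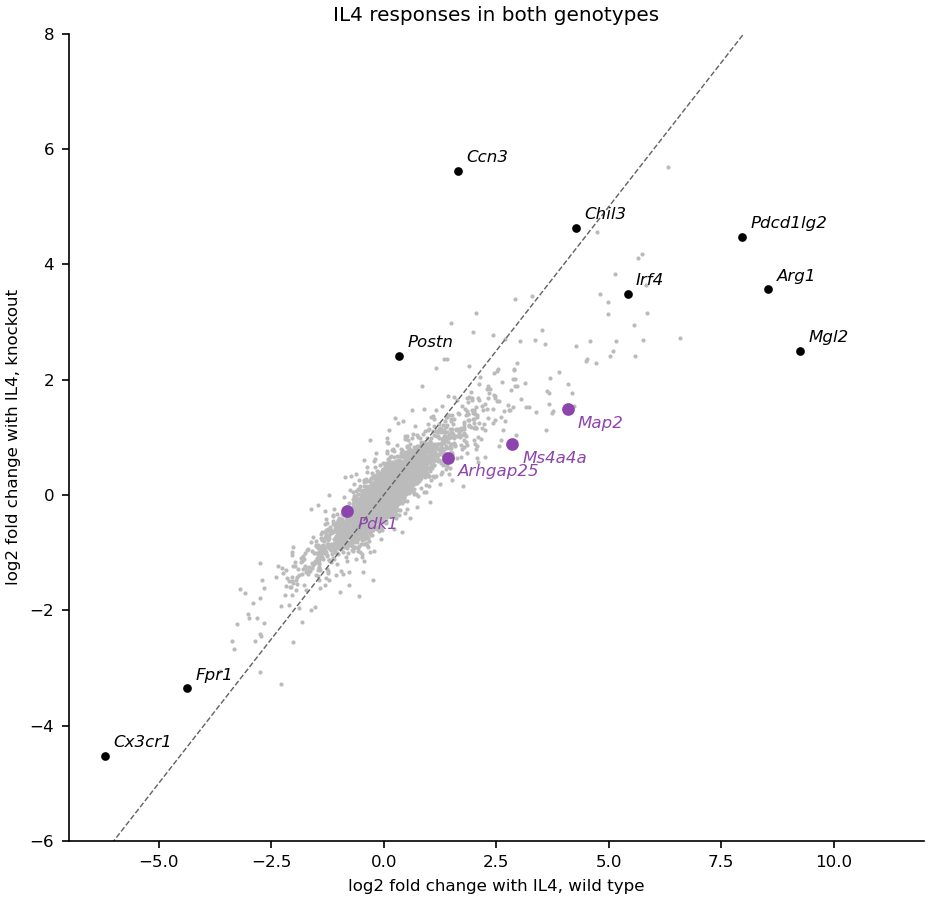
Log2 fold change with IL4 in wild type (horizontal) and in knockout (vertical) for 10249 genes with at least 5 CPM in 1 of the 4 group means and over 3 counts in each group, with the line of equal change dashed. The 4 genes whose responses differed by the test of the difference are in purple, and Arg1 and Mgl2 lie far to the right of the dashed line without passing that test.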

How the data were processed

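Poly(A) RNA libraries (NEBNext Ultra II Directional, 50 bp paired reads) of 27 cultures were deposited by the authors as a table of raw counts for 29872 genes. Per the submitters' processing notes, fastp 0.23.2, STAR 2.7.0, featureCounts and edgeR 3.38.4 were used with the build mm10. For strand, the counting option was not given in the sources used here, so overlapping and antisense genes are less certain. Reads of closely related genes (Chil3 and Chil4, Fpr1 and Fpr2) may be shared, so these are also less certain.

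Groups followed the labels. All 27 libraries entered 1 fit with 8 group means (edgeR 4.0.16, R 4.3.3, filterByExpr with a minimum count of 10, TMM, legacy robust quasi-likelihood), with Benjamini-Hochberg adjustment over 14589 genes and calls at an adjusted p under 0.05. Errors (±) are approximate SE, taken as the size of the log2 fold change divided by the square root of its quasi-likelihood F. They can differ from the SE of DESeq2, at 0.63 against 1.67 for Retnla and 0.60 against 0.49 for Fpr1. In simulated data of 14589 genes, 100 genes were set to change by 1 log2 unit and 100 by 2. Of these, 79% and 95% were recovered, with 8 false calls. In the real libraries 3873 genes were called and the vehicle libraries were split. The simulated figures therefore do not measure recovery or false calls in the real comparison. Positions are from GENCODE vM21 on GRCm38 (29815 of 29872 identifiers matched). DESeq2 1.42.0, other filters, scalings and library sets were tried.

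The members and the 37 gene lists were chosen with earlier results of these data known. Genes named are the largest rises and falls with at least 5 CPM and no overlap, up to 5 calls per list with the smallest adjusted p, called differences from wild type, 15 fixed genes and genes that varied most among vehicle libraries, and some were left out. Members named outside this rule (such as Fn1, Flt1, Pparg, Maf, Oas2, Alox15, Tgm2, Il1rn, Fpr2, Tlr4, Cd274 and Rel) were chosen after their values were seen. Labels do not say what replicate numbers share. Same-numbered IL4 and vehicle libraries deviated from their group means together, with correlations across genes of 0.115, 0.28 and 0.12 in knockout and 0.713, 0.279 and 0.612 in wild type. Between different numbers they were −0.196 to 0.052 in knockout and −0.629 to 0.211 in wild type. Blocked values are therefore given where they change a result. Counting intervals are exact (95%), floors are 3 counts, and both cover counting error only.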

Additional observations from a re-analysis of the deposited data

Results flagged for a closer look

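Of the 109 genes checked in the 4 vehicle libraries, 2 had a library far from the others by Dixon's criterion. The criterion flags about 1 group in 20 by chance, so these flags are no more than chance gives. It looks for 1 library far from the rest, and Arg1, high in a pair of vehicle libraries, was not flagged. The check therefore cannot show whether the vehicle libraries are alike. Socs1 was at 57.4 CPM in vehicle library 2, against 3.91 to 11 CPM in the other vehicle libraries. Dhcr7 was at 51.0 CPM in vehicle library 1, against 62.9 to 64.4 CPM in the others.

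The response to IL4 differed between knockout and wild type by the test of the difference in Map2 (−2.60), Ms4a4a (−1.97), Arhgap25 (−0.77) and Pdk1 (0.54), as knockout minus wild type on the log2 scale. Over the 21 fits run, the adjusted p of the difference ran from 0.000325 to 0.273 for Map2, from 2.39e-07 to 0.251 for Ms4a4a, from 2.63e-05 to 0.276 for Arhgap25 and from 1.89e-05 to 0.252 for Pdk1, and the direction was the same in each fit.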

How the results depend on the processing

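The count of 3873 changed genes stayed within 1.5 times with RLE scaling, no filter on low counts, a filter of 1 CPM, DESeq2, the newer edgeR dispersion, the 15 knockout libraries alone, and without vehicle libraries 2 and 3. With only the 7 libraries compared it was 1739, with 1008 higher and 731 lower. Leaving out each library in turn gave 2771 to 4023 calls, with 1523 to 2230 higher, 1248 to 1809 lower and 572 to 821 of at least 2-fold. With the replicate number as a block over the knockout libraries, 3896 genes were called, against 3222 in the same libraries without it, and the block changed no call of the 109 genes checked relative to the 27-library fit, though Arg1, Mgl2, Kcnd3 and Msx3 moved by over 1.5 times. Kcnd3 went from 4.13 to 4.72 and Msx3 from 3.34 to 4.0. In the knockout libraries without the block Arg1, Mgl2 and Socs1 were not called, so in those libraries the block gained 3 calls. The 4 called differences between genotypes became 8 with no filter, 79 with DESeq2, 7 with the newer dispersion, 0 with only the groups compared (898 at an unadjusted p under 0.05), 149 with the block, 2 without vehicle libraries 2 and 3, and 0 to 95 with 1 library left out. The cause was not tested.

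Of the 109 genes, no direction reversed under any of these settings. Most were named because they were called, many also without overlap, so a stable direction was largely set by the choice. Arg1 and Mgl2 lost their call with no filter on low counts. With only the 7 libraries compared 14 genes lost theirs, among them Arg1, Mgl2, Socs1, Cdh1, Flt1, Egr2 and Slc7a2. Without vehicle libraries 2 and 3, 1 call was lost and 38 values moved by over 1.5 times. Depth limits the genes with a few counts in vehicle libraries 1 and 4, whose ratios have wide counting intervals.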

Other observations

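Von Willebrand factor and PECAM, which mark endothelial cells and platelets, were higher with IL4. Vwf was at 82.3, 106, 106 and 96 CPM with vehicle and 261, 221 and 186 CPM with IL4 (1.19 ± 0.17 (adjusted p = 2.62e-05)), and Pecam1 at 9.91, 20.4, 22.1 and 15.7 CPM with vehicle and 31.8, 35.7 and 47.6 CPM with IL4 (1.17 ± 0.27). Of 6 endothelial markers tested 2 rose and 2 fell. The lectin Siglecf, known from eosinophils and alveolar macrophages, was at 2.01, 5.86, 6.51 and 4.11 CPM with vehicle and 14.2, 10.4 and 15.6 CPM with IL4 (1.52 ± 0.25), while the eosinophil receptor gene Il5ra had 0 counts in all 7 libraries. The matrix protein gene Postn was at 1.78, 2.33, 1.84 and 0.997 CPM with vehicle and 7.41, 8.64 and 11.6 CPM with IL4 (2.41 ± 0.53 (adjusted p = 0.00199)) and was the 1 stromal marker of 10 tested that rose.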
